A study of Mus musculus with 6 samples.

Results

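The 8 genes described here are transcripts of the thick ascending limb of the loop of Henle, with Umod, the gene for uromodulin, at their head. They are Umod, Kcnj1, Bsnd, Ppp1r1a, Sostdc1, Tmem52b, Tmem207 and Enox1, taken by symbol from a table in which 19658 genes held a value. The 8 were selected on their FPKM in the same 6 libraries, with the difference between the genotypes already known, so their values are given as a description and carry no test. All 8 were found, and all 8 passed the filter on low values (at least 1 FPKM in at least 3 of the 6 libraries), which left 13765 genes. FPKM divides a gene's sequenced fragments by its transcript length and by the size of the library, so levels of different genes can be set side by side.

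The thick ascending limb takes salt out of the tubule fluid without water. Sodium, potassium and chloride enter its cells through the apical cotransporter NKCC2, encoded by Slc12a1; potassium returns to the lumen through the channel ROMK, and chloride leaves on the blood side, a step that needs the protein barttin. The same cells make uromodulin, the most abundant protein of normal urine.

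RNA came from whole kidneys of mice at postnatal day 3. The libraries were 3 of genotype wild type, with no further allele given, and 3 of R26NICD2/+Kspcre, called NICD2 here. R26NICD2/+ is a copy of the Rosa26 locus that carries the Notch2 intracellular domain, the part of the receptor that acts in the nucleus, and Kspcre is a recombinase driven by the promoter of Ksp-cadherin (Cdh16), a cadherin found along kidney tubules. The series asks, by its title, how Notch2 activity bears on cysts of the kidney. Separate animals are not named for the samples of a group, so any p-value measures the spread between these samples. How much of that spread is technical is not known.

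The libraries held an estimated 16150000 to 17250000 fragments each, with 13568 to 13784 genes at 1 FPKM or more. A row named for human Notch2 was read as the transgene, a reading that the labels leave unstated, and held at most 0.03 FPKM in wild type and 60.2 to 79.6 FPKM in NICD2. Markers of the labelled tissue were present in every library. Slc34a1 of the proximal tubule was at 365 to 392 FPKM in wild type and 216 to 282 FPKM in NICD2. Nphs1 of podocytes was at 14.0 to 16.6 and 9.28 to 11.3 FPKM. These 2 genes were lower in every NICD2 library, while Slc12a1 of the thick limb overlapped (118 to 143 and 93.0 to 131 FPKM). NICD2 replicate 3 stood apart in 4 genes of the Y chromosome (Uty, Kdm5d, Ddx3y and Eif2s3y), which were at 0 FPKM there and at 4.56 FPKM or more in the other 5 libraries. So NICD2 replicate 3 did not come from the same animal as NICD2 replicates 1 and 2. Without NICD2 replicate 3 the members differed by 1.48 (Umod), 0.44 (Kcnj1), -0.60 (Bsnd), -0.58 (Sostdc1), -0.29 (Tmem52b), -0.27 (Ppp1r1a), -0.09 (Enox1) and -1.04 (Tmem207) on the log2 scale used below. A list of 10 adrenal genes summed to 5.21 FPKM in wild type replicate 3 and 2.12 FPKM in NICD2 replicate 1, against 196 to 207 FPKM in the other 4 libraries. That gap crosses both genotypes, and its part in the results was not tested.

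Promoter windows of 250 bases upstream of the RefSeq start (GRCm38.p6) were on hand for 5 members, Umod, Kcnj1, Tmem207, Tmem52b and Enox1. Shown are the pair of members that were higher in NICD2, Umod and Kcnj1, and the member with the largest ratio on the lower side, Tmem207, each 5′ to 3′ on the strand of its gene, with matches to the searched motifs in capitals. The windows are chr7:119479263-119479512 (minus strand) for Umod, chr9:32393735-32393984 (plus strand) for Kcnj1 and chr16:26526772-26527021 (minus strand) for Tmem207.
Umod: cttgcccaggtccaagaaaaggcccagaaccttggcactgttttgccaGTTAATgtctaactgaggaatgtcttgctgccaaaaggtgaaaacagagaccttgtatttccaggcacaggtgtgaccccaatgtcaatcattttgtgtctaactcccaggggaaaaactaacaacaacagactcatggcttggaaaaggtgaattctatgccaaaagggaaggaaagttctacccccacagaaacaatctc
Kcnj1: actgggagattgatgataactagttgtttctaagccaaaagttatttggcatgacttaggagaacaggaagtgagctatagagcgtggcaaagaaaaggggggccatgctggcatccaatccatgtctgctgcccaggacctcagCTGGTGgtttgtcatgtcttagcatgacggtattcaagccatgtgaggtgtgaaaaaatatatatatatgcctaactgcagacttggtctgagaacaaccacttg
Tmem207: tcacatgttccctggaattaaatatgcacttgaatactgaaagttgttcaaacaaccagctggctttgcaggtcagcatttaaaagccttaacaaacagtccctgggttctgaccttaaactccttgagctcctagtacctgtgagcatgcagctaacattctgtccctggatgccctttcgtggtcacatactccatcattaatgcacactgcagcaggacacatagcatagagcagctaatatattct

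Searched on both strands were the Rbpj core TGGGAA, the sequence bound by the DNA partner of the Notch intracellular domain, the HNF1 core GTTAAT, the Hes and Hey E-box CACGTG and the Hes N-box CACNAG; no matches in the members overlapped. The Umod window held GTTAAT from 202 to 197 bases before the start, a motif found in 6.43% of all 32851 such windows. The Kcnj1 window, which belongs to a start inside the gene as the table gives it, held CTGGTG, an N-box on the other strand, from 105 to 100 bases before the start (36.7% of windows). None of the 5 windows held TGGGAA (21.6% of windows) or CACGTG (6.02% of windows). A match is a run of letters and not a measured site, and its absence speaks only of these windows.

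Umod (gene 22242, 7:119462708-119479262 on GRCm38, 11 exons in its principal GENCODE transcript) had 112, 121 and 110.4 FPKM in wild type. In NICD2 it was at 300.1, 344 and 366 FPKM. Every NICD2 library lay above every wild type library, and the lowest NICD2 value was far above the highest wild type value. The means were 114 ± 5.53 and 337 ± 33.6 FPKM (SD, n = 3 per group), a 2.95-fold difference. On the log2(FPKM + 1) scale, which all differences below use unless stated, NICD2 minus wild type was 1.55 ± 0.09 (SE). Of the 13765 genes tested, 55 had a larger difference. By mean level Umod ranked 537 among all genes in wild type and 163 in NICD2. In whole kidneys, fewer or more cells of a type and less or more RNA per cell cannot be told apart.

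Kcnj1 (gene 56379, 9:32372418-32399197, 2 exons), which encodes ROMK and is also a gene of the connecting tubule and collecting duct, was the other member that was higher in every NICD2 library. It was at 19.3, 22.8 and 23.8 FPKM in wild type and at 31.3, 28.7 and 34.7 FPKM in NICD2. The difference was 0.51 ± 0.12, on means of 21.9 ± 2.36 and 31.6 ± 2.98 FPKM. So the secreted product of the segment and its potassium channel stood on the same side, with a 2.95-fold and a 1.44-fold ratio.

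Bsnd (gene 140475, 4:106483456-106492243, 4 exons), the gene for barttin, lay on the other side. It was at 24.4, 24.3 and 23 FPKM in wild type and at 14.6, 16.4 and 17 FPKM in NICD2, with no overlap. Means were 23.9 ± 0.806 and 16 ± 1.25 FPKM, a difference of -0.55 ± 0.07. Barttin is not confined to the thick limb: the thin ascending limb, the distal convoluted tubule and intercalated cells of the collecting duct also use it.

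Sostdc1 (gene 66042, 12:36314169-36318452, 2 exons), a secreted antagonist of BMP and Wnt signals, was the member with the second highest level. It was at 87.9, 98.9 and 90.1 FPKM in wild type and at 55.7, 67.9 and 71.5 FPKM in NICD2. Its NICD2 libraries were all below its wild type libraries, by -0.50 ± 0.12. Ppp1r1a (gene 58200, 15:103530279-103537992, 7 exons), an inhibitor of protein phosphatase 1, differed by less, at 31.3, 30.2 and 30.6 FPKM in wild type and 24.3, 26.5 and 25.1 FPKM in NICD2. Its wild type values spread by 0.520 FPKM (SD), and the difference was -0.27 ± 0.04, with no overlap.

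Tmem52b (gene 330428, 6:129512548-129542331, 5 exons), a membrane protein gene, was at 69.6, 81.3 and 84.7 FPKM in wild type and at 65.8, 61.6 and 63.8 FPKM in NICD2. The groups were close, since wild type replicate 1 lay just above NICD2 replicate 1, and the difference was -0.29 ± 0.09. Enox1 (gene 239188, 14:77154001-77721763, 19 exons), a cell-surface thiol exchanger gene of low level, overlapped: it was at 1.24, 1.75 and 1.39 FPKM in wild type and at 1.23, 1.37 and 1.43 FPKM in NICD2. Its difference was -0.07 ± 0.09 and turned to 0.02 without wild type replicate 2.

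Tmem207 (gene 100043057, 16:26503793-26526771, 5 exons), also a membrane protein gene, was the lowest of the 8 in level. It was at 1.02, 1.18 and 1.25 FPKM in wild type, and in NICD2 it was listed at 0, 0.09 and 0 FPKM. With the estimated depth these values stand for about 81 fragments over the wild type libraries and about 2 over the NICD2 libraries. The ratio was 40.9, and it is imprecise because it rests on so few NICD2 fragments. The difference of -1.06 ± 0.06 on the log2(FPKM + 1) scale is small because the wild type level is near the pseudocount, and with a pseudocount of 0.1 it was -3.33. Tmem207 passed the filter only through its wild type libraries, so it could be kept only by being high there.

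**Figure D1:**
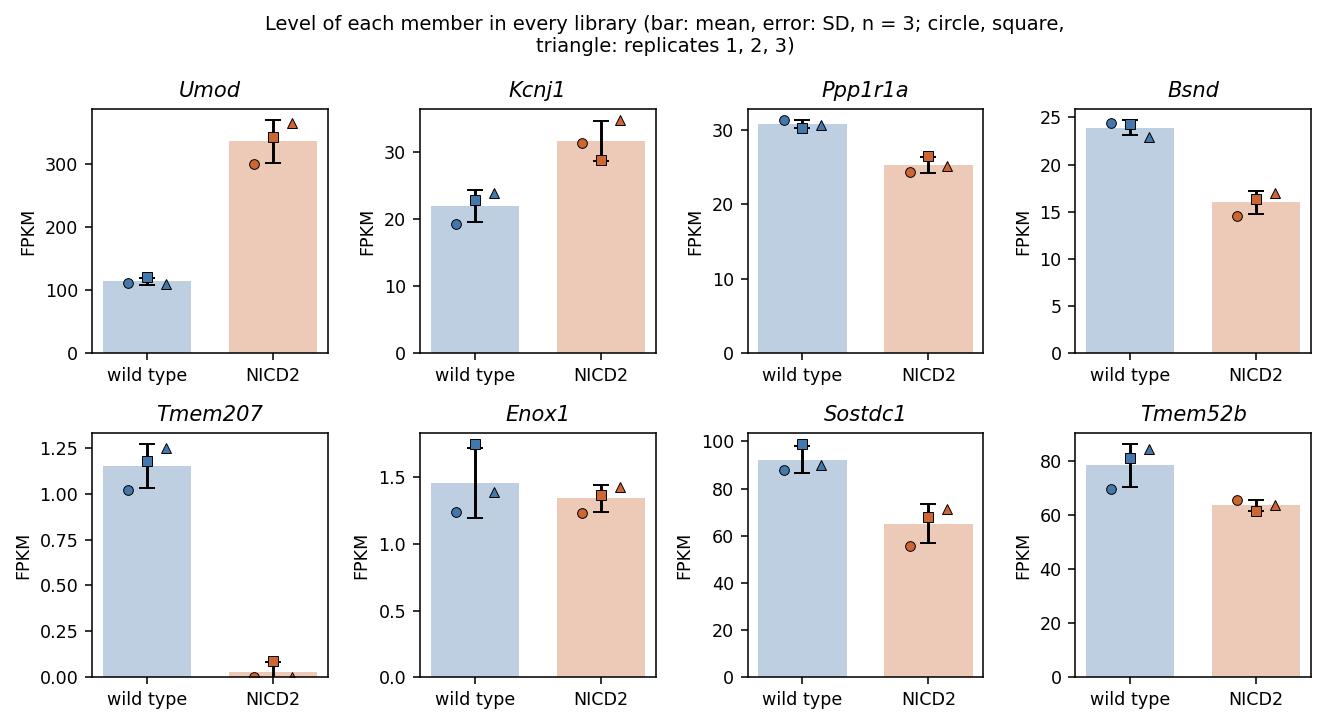
FPKM of each of the 8 members in wild type (blue) and NICD2 (orange), with bars for the mean, error bars for the SD (n = 3) and a symbol per library. Umod and Kcnj1 are higher in all NICD2 libraries, Enox1 overlaps and the other 5 are lower.

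Counting the 8 together, the groups did not overlap for 7, with NICD2 above wild type for 2 and below it for 5. Over all genes tested the groups did not overlap for 30.5%, with 15% higher and 15.5% lower, and limma, a linear model with moderated variances, called 8.79% at adjusted p under 0.05; since the same values chose the members, nothing is read from the comparison. The median difference was -0.28 over the 8 and -0.29 over the 7 without Umod, where the median over all genes tested was -0.01. In the order of level, Umod, Sostdc1 and Tmem52b led in that order in both genotypes. Kcnj1 ranked 6 of 8 in wild type, below Ppp1r1a and Bsnd, and 4 in NICD2, above both. Neighbours in this order that overlapped were Bsnd and Kcnj1 (23 to 24.4 and 19.3 to 23.8 FPKM) and Enox1 and Tmem207 in wild type, and Sostdc1 and Tmem52b (55.7 to 71.5 and 61.6 to 65.8 FPKM) in NICD2.

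The sum of the 7 members without Umod was 250 ± 13.5 FPKM in wild type and 203 ± 10.3 FPKM in NICD2. Umod made up 32.3%, 31.7% and 30.2% of the summed level of the 8 in wild type. In NICD2 it made up 60.9%, 62.9% and 63.2%. The summed level of the 8 was therefore higher in NICD2, 540 against 364 FPKM, through Umod and Kcnj1.

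Slc12a1, the defining transporter of the segment and not one of the 8, served as a reference. It was at 118, 143 and 137 FPKM in wild type and at 93.0, 103 and 131 FPKM in NICD2. NICD2 replicate 3 lay within the wild type range, and limma, fitted over all genes, did not call it (log2 fold change -0.29 ± 0.13, adjusted p = 0.196). Without NICD2 replicate 3 it was called lower (-0.43, adjusted p = 0.0406).

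Per unit of Slc12a1, Umod stood at 0.943, 0.846 and 0.803 in wild type and at 3.23, 3.33 and 2.79 in NICD2. Umod was thus below the cotransporter in all 3 wild type libraries and above it in all 3 NICD2 libraries, and the log2 difference of the ratio was 1.84 ± 0.10. For Kcnj1 the ratios were 0.163, 0.160 and 0.173 in wild type and 0.337, 0.278 and 0.264 in NICD2, a log2 difference of 0.80 ± 0.11. Neither overlapped. Set against Slc12a1, Tmem52b differed by 0.00 ± 0.16 and Ppp1r1a by 0.02 ± 0.17, and the groups of both overlapped. Sostdc1 (-0.21 ± 0.09) and Enox1 (0.23 ± 0.12) overlapped too. Bsnd kept a gap of -0.26 ± 0.14 and Tmem207 of -0.77 ± 0.17. Without NICD2 replicate 3, the ratio differed by 1.92 for Umod, 0.87 for Kcnj1, -0.16 for Bsnd, -0.14 for Sostdc1, 0.34 for Enox1, 0.16 for Ppp1r1a, 0.14 for Tmem52b and -0.61 for Tmem207.

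**Figure D2:**
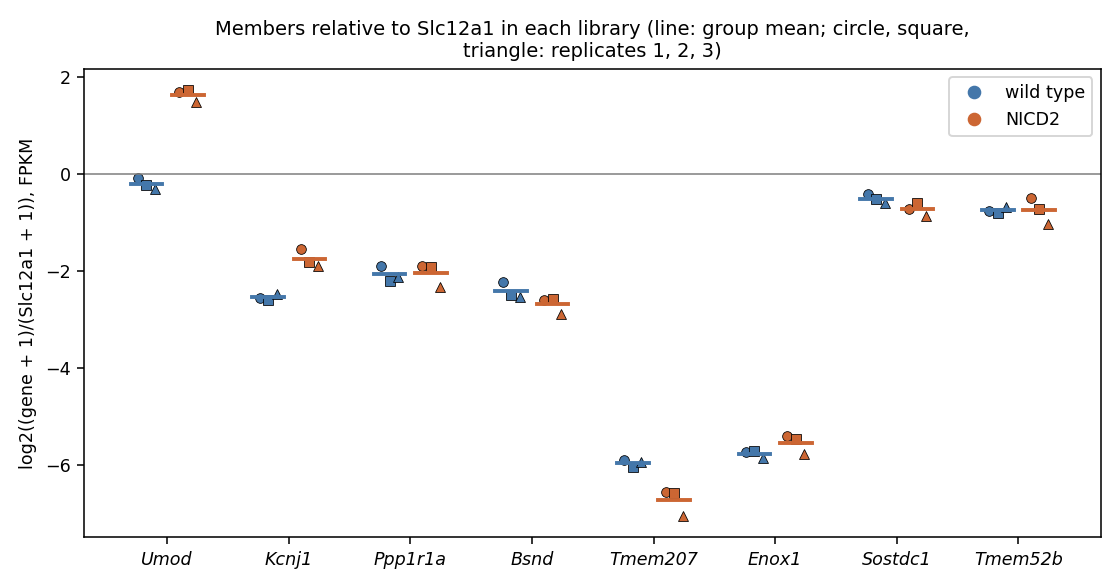
log2 of each member's level over that of Slc12a1 (FPKM + 1 in both) in each library, blue for wild type and orange for NICD2, with a line at the group mean. Umod crosses from below to above 0, Kcnj1 is also higher, and Tmem52b and Ppp1r1a have group means that differ by less than their spread.

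Within a genotype, Umod varied together with some of the members that lay on the other side of the comparison. The deviation of each library from its own group mean does not use the difference between the genotypes. Sostdc1 had a deviation of the same sign as Umod in 6 of 6 libraries, with Pearson r = 0.98 over these 6 points, and Bsnd in 5 of 6 (r = 0.93). For Bsnd the likeness lay mainly in NICD2 (-0.121, 0.037 and 0.084, with Umod at -0.160, 0.034 and 0.126). In wild type it was looser (0.028, 0.026 and -0.054, with Umod at -0.030, 0.078 and -0.048). Slc12a1 had r = 0.83, Enox1 0.70, Ppp1r1a 0.38, Kcnj1 0.27, Tmem207 0.16 and Tmem52b -0.10. These are descriptions over 6 libraries with group means removed, and genes of a library share its depth, scaling and cell makeup. The ratio of Umod to Sostdc1 was narrow within each genotype, at 1.27, 1.22 and 1.23 in wild type and at 5.39, 5.06 and 5.13 in NICD2. NICD2 replicate 1, which was lowest of its group in Umod, Sostdc1 and Bsnd, was also lowest in Slc12a1. In that library the adrenal genes summed to 2.12 FPKM, and the part of this in the deviations was not tested.

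**Figure D3:**
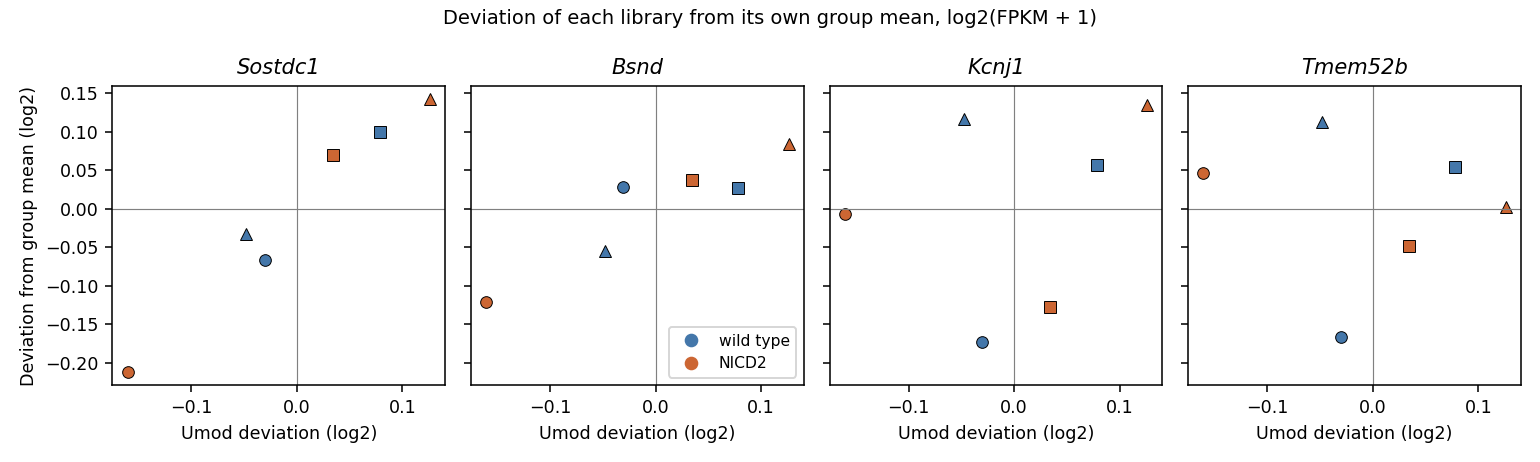
Deviation of each library from its group mean, in log2(FPKM + 1), for Umod on the horizontal axis and Sostdc1, Bsnd, Kcnj1 or Tmem52b on the vertical axis (blue wild type, orange NICD2). Points of Sostdc1 follow Umod (r = 0.98 over 6 libraries), and those of Bsnd do so mainly in NICD2 (r = 0.93 over 6 libraries). Points of Kcnj1 and Tmem52b are scattered (r = 0.27 and -0.10).

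A list of 20 other markers of the thick ascending limb was examined to place the 8 members, with tests fitted over all genes. Of its 19 tested genes, limma called 4 lower and 2 higher, with 13 not called and a median of -0.09. Over all genes tested 3.86% were called lower and 4.93% higher at adjusted p under 0.05, against 21.1% and 10.5% of the list. The summed level of the list was 598 to 637 FPKM in wild type and 550.3 to 603 FPKM in NICD2, which overlap. The count of higher genes fell to 0 without replicate 1, 2 or 3 of wild type or replicate 1 of NICD2, and to 1 without NICD2 replicate 2, while 4 genes were higher in each of these fits at an unadjusted p under 0.05.

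Among the lower genes, Egf, the precursor of epidermal growth factor made in the thick limb and distal tubule, fell from 3.82 ± 0.746 to 1.26 ± 0.144 FPKM (limma log2 fold change -1.08 ± 0.13, adjusted p = 0.00146). The calcium-sensing receptor Casr, which restrains salt uptake in the segment, fell from 7.82 ± 0.782 to 4.10 ± 0.593 FPKM (limma adjusted p = 0.00277). Both calls held in all 6 fits that left out a library, and both genes were lower in all 3 NICD2 libraries. Wfdc15b, a small secreted protein gene, was the called gene with the highest level on the other side, at 66.7, 63.7 and 67.6 FPKM in wild type and 96.0, 76.4 and 83.0 FPKM in NICD2 (limma adjusted p = 0.0372). The transcription factor Irx2 was at 12.0 ± 0.364 and 15.1 ± 0.974 FPKM (limma adjusted p = 0.0322). Each was called in 1 of the 6 such fits, Wfdc15b without NICD2 replicate 2 and Irx2 without NICD2 replicate 3, with adjusted p up to 0.130 and 0.122 in the others. Irx1, the related factor, at 28.3 and 36.4 FPKM (limma adjusted p = 0.0538), and Tmem72, at 10.7 and 13.7 FPKM (limma adjusted p = 0.0543), lay above wild type in all 3 NICD2 libraries without passing the threshold; Irx1 passed it without NICD2 replicate 3 (limma adjusted p = 0.0412).

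Of 4 tight-junction claudins tested, limma called 1, Cldn3, and not the 3 that were also listed as thick limb markers. Cldn10, measured as a whole gene in whole kidney, was at 81.0 and 72.7 FPKM, and Cldn16 was at 8.44 and 6.78 FPKM. Cldn19, the partner of Cldn16 in magnesium transport, was at 36.8 and 36.7 FPKM (limma adjusted p = 0.386, 0.232 and 0.979 for the 3). Cldn14 was under the filter, at 0.0867 and 0.360 FPKM. Cldn3 was called higher, at 21.8 and 34.7 FPKM (limma adjusted p = 0.0321), and was not called without replicate 2 or 3 of wild type or replicate 1 of NICD2 (limma adjusted p up to 0.116). None was called lower, also 0 at an unadjusted p under 0.05. The remaining markers were not called either. The potassium channel gene Kcnj16 was at 36.4 and 35.6 FPKM, the factor Pou3f3, which is needed for loop of Henle development, at 22.3 and 23.6 FPKM, and the nuclear receptor Esrrg at 14.6 and 13.5 FPKM. Creatine kinase Ckb was at 31.4 and 34.0 FPKM, Cyfip2 at 14.6 and 13.1 FPKM, Ppp1r1b at 1.37 and 1.69 FPKM and the prostaglandin receptor Ptger3 at 6.02 and 4.31 FPKM, called lower without NICD2 replicate 3 alone (limma adjusted p = 0.0498).

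**Figure D4:**
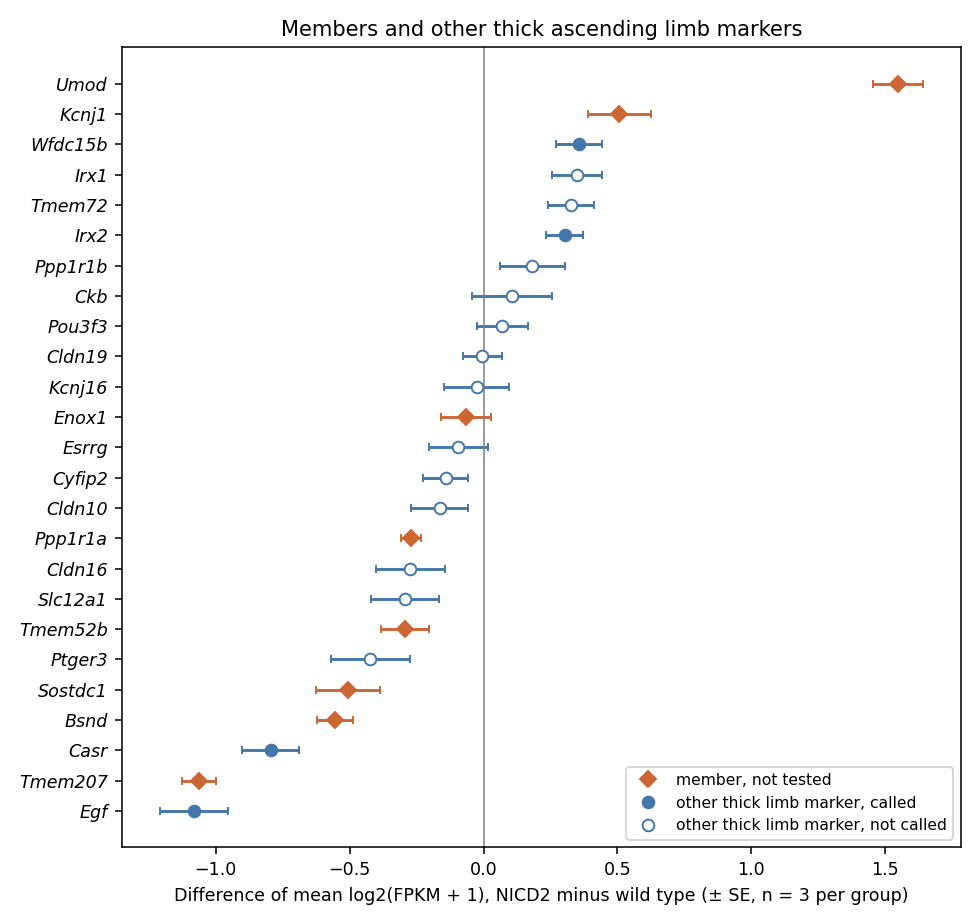
Difference of mean log2(FPKM + 1), NICD2 minus wild type, ± SE (n = 3 per group) for the 8 members (diamonds, not tested) and the other thick ascending limb markers described in the text (circles, filled where limma called them). Umod at 1.55 lies beyond all others on the higher side, and Egf at -1.08 and Tmem207 at -1.06 are lowest.

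Calls among other genes of the salt transport machinery went in one direction. The groups did not overlap for 1 gene with NICD2 higher and for 6 with NICD2 lower, against 15% and 15.5% of all genes tested. Of 11 tested, 3 fell and 0 rose by limma (0 higher and 7 lower at an unadjusted p under 0.05), with a median of -0.21. They included Fxyd2, the gamma subunit of the sodium pump, at 1094 and 812 FPKM (limma adjusted p = 0.0275), not called without replicate 1 or 3 of wild type or replicate 1 or 3 of NICD2 (adjusted p up to 0.0929). The count was 1 without replicate 1 or 3 of wild type or replicate 1 of NICD2.

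Regulators of NKCC2 were split. Of 11 tested, 2 rose and 2 fell by limma, and these 4 calls held in all 6 fits that left out a library. Stk39 encodes SPAK, a kinase that phosphorylates NKCC2; it was at 16.8, 17.5 and 17.7 FPKM in wild type and at 27.1, 30.3 and 27.2 FPKM in NICD2 (limma log2 fold change 0.67 ± 0.07, adjusted p = 5.72e-04). Cab39l encodes a scaffold protein that activates SPAK and its relative OSR1, and was at 17.8, 19.8 and 19.3 FPKM in wild type and at 36.0, 28.4 and 33.4 FPKM in NICD2 (limma log2 fold change 0.74 ± 0.09, adjusted p = 0.00172). Both were higher in all 3 NICD2 libraries. Besides Casr, the adenylyl cyclase Adcy6 fell, from 35.4 ± 1.36 to 25.1 ± 0.381 FPKM (limma adjusted p = 0.00171).

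Genes listed for the macula densa, the sensor plaque at the end of the thick limb, were measured in whole-kidney RNA. Their values are therefore not those of the plaque alone. Of 5 tested, 2 fell and 0 rose by limma (0 higher at an unadjusted p under 0.05), and the median was 0.07. The vasopressin receptor Avpr1a fell from 4.39 ± 0.879 to 1.51 ± 0.286 FPKM (limma adjusted p = 0.00234), and the neuronal nitric oxide synthase Nos1 from 1.62 ± 0.118 to 0.820 ± 0.0361 FPKM (limma adjusted p = 0.0174). Nos1 passed the filter through wild type alone, and without any 1 wild type library it was not tested, which left 1 gene called lower. Ptgs2 and Ramp3 were not called (limma adjusted p = 0.390 and 0.490). Of 14 transcription factors of the loop and the developing nephron, limma called 4 lower and 1 higher, with a median of -0.17. Foxq1 was at 6.85 and 3.58 FPKM, Pax2 at 44.4 and 32.4 FPKM, Tfap2b at 19.9 and 14.6 FPKM and Ppargc1a at 14.0 and 10.1 FPKM (limma adjusted p = 0.00416, 0.0124, 0.0144 and 0.0206). Without replicate 2 or 3 of wild type or replicate 1 of NICD2 neither Tfap2b nor Ppargc1a was called (limma adjusted p up to 0.0659 and 0.0896), nor was Ppargc1a without NICD2 replicate 2, and the count of lower genes was 2 without replicate 2 or 3 of wild type or replicate 1 of NICD2. The higher gene was Irx2.

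Genes that act on uromodulin or resemble it were mostly under the filter on low values. Uromodulin is released from the membrane by the protease hepsin, and Hpn was at 44.4 ± 1.29 and 42.1 ± 0.586 FPKM (limma adjusted p = 0.452). Of 8 genes in that list 3 passed the filter, with a median of 0.30. Limma called 1 higher and 0 lower (2 higher and 0 lower at an unadjusted p under 0.05). The called gene was the protease gene St14, at 28.0 and 34.8 FPKM (limma adjusted p = 0.0294). It was not called without replicate 2 or 3 of wild type or replicate 1 or 2 of NICD2 (limma adjusted p up to 0.111). Gp2, the close relative of Umod that lies 3.44 kb from it on chromosome 7, was at 0.45, 0.50 and 0.39 FPKM in wild type and at 1.09, 1.17 and 0.98 FPKM in NICD2. It was higher in every NICD2 library but under the filter and so untested in the filtered fit. With no filter limma tested all 8 genes of the list. It then called 2 higher and 0 lower (3 higher and 0 lower at an unadjusted p under 0.05). The other near genes differed by less. Pdilt, 7.32 kb away on the other side, was at 0.510 and 0.447 FPKM, Acsm5 at 1.86 and 1.20 FPKM, Acsm2 at 9.51 and 10.9 FPKM, Gprc5b at 10.4 and 8.54 FPKM and Iqck at 1.18 and 1.24 FPKM, and limma called none of the 4 it tested (adjusted p of at least 0.107).

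Uromodulin folds slowly in the endoplasmic reticulum, so 18 genes of chaperones and the unfolded protein response were set beside it. Of these limma called 1 higher and 0 lower (3 higher and 0 lower at an unadjusted p under 0.05), with a median of 0.11. It was Herpud1, at 26.6 and 32.7 FPKM (limma adjusted p = 0.0326), which kept its call solely without NICD2 replicate 3, where the list had 2 (adjusted p up to 0.112 in the others). The chaperone Hspa5 was at 181, 208 and 205 FPKM in wild type and 239.9, 224 and 223 FPKM in NICD2 and was not called (limma adjusted p = 0.12).

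Partners of the other members were examined in the same way. In a list of 7 genes of protein phosphatase 1 and its regulators, the targets of the Ppp1r1a product, limma called 0 in either direction (1 higher and 0 lower at an unadjusted p under 0.05), with a median of 0.05. Among 14 tested genes of BMP signalling and relatives of Sostdc1, 2 rose and 1 fell, with a median of -0.04. Bmp7, a ligand that the Sostdc1 protein antagonises, was at 28.4 ± 0.390 and 23.2 ± 0.770 FPKM (limma adjusted p = 0.0194), Bmpr1b at 8.58 and 11.4 FPKM and Id1, a BMP target, at 59.6 and 86.2 FPKM (limma adjusted p = 0.0416 and 0.0377). The list gave 0 calls without wild type replicate 2 or NICD2 replicate 1 (2 higher at an unadjusted p under 0.05 in both). Without any 1 of the other 4 libraries at least 1 of Bmp7, Bmpr1b and Id1 also lost its call, with limma adjusted p up to 0.0875, 0.127 and 0.128.

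Kcnj1 and Bsnd are also expressed outside the thick limb, and markers of several other segments and cell types, not all, moved with the genotype. Of 15 intercalated-cell markers limma called 14 lower and 0 higher (0 higher at an unadjusted p under 0.05), and their summed level was 227 to 234 FPKM in wild type and 68.1 to 80.1 FPKM in NICD2. Of the 14, 3 (Slc26a4, Aqp6 and Hepacam2) passed the filter through wild type alone and so had to be high there. Of 11 markers of the distal convoluted tubule 5 fell and 0 rose (0 higher at an unadjusted p under 0.05), summing to 291 to 301 and 193 to 253 FPKM; the count was 3 without wild type replicate 2 or 3. Of the 5, Pvalb passed the filter through wild type alone. Of 10 thin limb markers 7 fell and 1 rose, summing to 445 to 493 and 339 to 376 FPKM, with 4 called lower without wild type replicate 1 and 3 without wild type replicate 2. Of 12 principal-cell markers 5 fell and 3 rose, summing to 499 to 547 and 398 to 504 FPKM. Outside the distal nephron, 8 of 9 podocyte markers fell and 0 rose (0 higher at an unadjusted p under 0.05), with a median of -0.49 and sums of 391 to 437 FPKM in wild type and 282 to 302 FPKM in NICD2; the count was 8 in each fit that left out a library. Of 14 proximal tubule markers 3 fell and 0 rose, summing to 2509.8 to 2638 and 1833 to 2169 FPKM. Of 9 endothelial markers 3 fell and 0 rose, summing to 401 to 453 and 352 to 371 FPKM, with 1 called lower without replicate 2 of wild type or replicate 1 or 2 of NICD2. In both lists 0 were higher at an unadjusted p under 0.05. Other cell types did not fall in this way. Of 8 stroma and smooth muscle markers 1 rose and 0 fell, with a median of 0.08. Of 6 immune markers tested 1 rose and 0 fell, with a median of 0.16, and that call was lost without any 1 library. Of 5 red cell markers tested limma called 0, with a median of -0.24. No marker of these lists was at 0 in all libraries. The part of these cells in the differences of the members was not tested.

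By likeness of pattern, the genes closest to Umod over the 6 libraries were Hey2 (r = 0.996), Lrrtm1 (r = 0.996), Clcn7 (r = 0.995), Pkp4 (r = 0.995) and Ccnd1 (r = 0.994), among 12093 named genes of at least 2 FPKM. Hey2, a transcriptional repressor, was at 3.96 and 9.04 FPKM, Lrrtm1 at 2.33 and 4.79 FPKM, Clcn7 at 9.83 and 11.8 FPKM, Pkp4 at 27.7 and 34.8 FPKM and Ccnd1, the gene for cyclin D1, at 95 and 221 FPKM. With 3 libraries in each genotype any gene with a clean gap scores high on this measure, and 232 genes reached 0.95. Of the members, Kcnj1 had r = 0.92 to Umod, and Ppp1r1a, Bsnd, Tmem52b and Sostdc1 had -0.94, -0.94, -0.85 and -0.85. The genes closest to the mean profile of the 7 other members were Foxo1, Chst11, Podxl, Plekhg1 and Adgrf5 (r = 0.995 to 0.997), at 14.1 and 11, 9.99 and 8.18, 139 and 99.9, 12.2 and 9.57 and 28.3 and 21.1 FPKM.

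The authors' deposited table gave a log2 fold change of 1.56 for Umod, 0.52 for Kcnj1, -0.58 for Bsnd, -0.50 for Sostdc1, -0.29 for Tmem52b, -0.28 for Ppp1r1a, -0.15 for Enox1 and -5.36 for Tmem207. These signs are those of the differences above, and the same libraries underlie both.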

How the data were processed

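Each sample's group and number were read from its label. Per the labels' protocols, Trizol was used for total RNA and a TruSeq kit for libraries. The authors' FPKM are deposited to 2 decimals for each of the 6 libraries, with group means, a log2 fold change and a p-value and q-value from DEGseq, per the file headers. Bowtie 0.12.2 and mm8 are named in the submitters' processing notes, while the table's chromosome accessions are those of GRCm38, whose coordinates are given. The program behind the FPKM, and the handling of strand and shared reads: not given in the sources used here. Longest transcript lengths are another deposited value. Of 23669 rows, 4010 held no FPKM, and 27 columns comparing pairs of samples were not used.

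Depth was estimated as the library size, with a subtracted length of 110 to 130 bases, that put most low values of short genes on whole fragments (86.2% to 90.2% within 0.15 of a whole number, 30.0% by chance). Values were transformed to log2(FPKM + 1) and compared with limma 3.58.1 (R 4.3.3), with a variance trend and no covariate, over 13765 genes with at least 1 FPKM in 3 libraries. Calls are two-sided at Benjamini-Hochberg adjusted p under 0.05. Limma was also tested on simulated FPKM (13633 genes) for this comparison, with noise drawn independently for each gene. It found 60%, 95% and 100% of the 50, 100 and 50 genes shifted by 0.5, 1 and 2 on the log2 scale. Of its calls 6.42% were false. Shifted genes all had a mean log2(FPKM + 1) above 2, so recovery of lower genes was not measured. SE of members are from the group SDs.

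The members and gene lists were chosen with earlier results of these data known. Named are the 8 members, all listed thick limb markers, up to 4 genes per other list by smallest p, 3 genes on each side of Umod, and the 5 genes most like Umod and most like the other members' mean. Other called genes of a list were named after their values were seen. Also run were a pseudocount of 0.1, no filter, a filter of 5 FPKM, median-ratio and upper-quartile scaling, a replicate block, and leaving out each library in turn. A few genes that enter the counts are not reported here by name. Exon counts are from the GENCODE annotation of GRCm38. Python 3.11.15, pandas 2.3.3 and matplotlib 3.10.9 were used.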

Additional observations from a re-analysis of the deposited data

How the results depend on the processing

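Under every alternative run, the differences of Umod, Kcnj1, Bsnd, Sostdc1, Ppp1r1a, Tmem52b and Tmem207 kept their sign; Enox1 did not (-0.13 to 0.02). Without a library, Umod differed by 1.48 to 1.63, Kcnj1 by 0.42 to 0.57, Bsnd by -0.60 to -0.49 and Sostdc1 by -0.58 to -0.40. Tmem207 was -3.33 with a pseudocount of 0.1, and -3.04 relative to Slc12a1. It was not tested without a wild type library or with a filter of 5 FPKM, nor was Enox1 with the latter. Of 13765 genes, 1210 were called, and 603 to 955 when 1 library was left out (603 without wild type replicate 2, 753 without 3, 666 and 773 without NICD2 replicates 1 and 2). Of the thick limb markers, 2 were called higher, 0 with no filter on low values (5 at an unadjusted p under 0.05), 4 with the filter of 5 FPKM and 0 to 2 without a library. The cause was not tested. The count lower, 4, ranged from 3 to 5. Over the 226 alternatives for single markers, 18 lost a call, 8 gained one and none that was called changed sign. Replicate numbers do not pair the samples: same-numbered libraries had correlated deviations of -0.0327, 0.0590 and -0.0453, and 0 libraries correlated best with their own number. With the replicate block 1055 genes were called, with 3 thick limb markers higher and 4 lower. At this depth the genes near 1 FPKM, Tmem207, Enox1 and Gp2, have the least precise values.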
